A study of Homo sapiens with 12 samples.

Results

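The catalytic subunits of the PPP family of serine/threonine phosphatases were examined in HCT116 cells, an established human colorectal cancer cell line, over 24 h of low oxygen. The 10 genes were PPP1CA, PPP1CB and PPP1CC (protein phosphatase 1, PP1), PPP2CA and PPP2CB (PP2A), PPP3CA and PPP3CB (calcineurin), and PPP4C, PPP5C and PPP6C. They were taken by gene name, with no measured value used but with earlier results of these data known. The source was the 56537 gene names that carry at least 1 transcript matching a reference transcript (class code =) or sharing a splice junction with it (class code j). These names held 286562 transcripts, 124 of them from the 10 genes. Of the 124, 66 passed the minimum for isoform analysis, an FPKM (fragments per transcript length and sequenced depth) above 0.5 in at least 3 libraries. All 10 genes passed the same minimum on their summed FPKM, and levels below are FPKM summed over the transcripts of a gene, a scale that divides by transcript length.

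Poly(A) RNA was sequenced strand-specifically from HCT116 cells kept at 21% O2 (0 h) or moved to 1% O2 for 1, 2 or 24 h, with 3 libraries per time point that the series calls biological replicates. Every group is the same line in the same medium, and the labels give no difference but the hours in 1% O2. Low oxygen began 24 h after plating, and how long after plating the 0 h cells were harvested, compared with those of 24 h, is not given in the sources used here. The results are from 1 cell line in bulk, so fewer cells with a transcript and less of that transcript per cell cannot be told apart.

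PPP-family enzymes remove phosphate from serine and threonine and, as free catalytic subunits, have little choice of substrate. PP1 and PP2A gain their targets from a large set of regulatory subunits and inhibitors, calcineurin is switched on by calcium and calmodulin, PP4 and PP6 are close relatives of PP2A, and PP5 is a single chain with a tetratricopeptide domain that binds the HSP90 chaperone. In epithelial tumour cells these enzymes act in mitosis, metabolism, the DNA damage response and growth signalling.

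Transcripts induced by low oxygen marked the 24 h libraries. CA9, NDRG1, EGLN3 and ANKRD37 all rose at 24 h (4 of 4). The epithelial genes EPCAM, CDH1, KRT8, KRT18 and KRT19 were expressed in every library. CDH1, which encodes E-cadherin, rose from 7.42 to 26.3 FPKM at 24 h (log2 fold change 1.76, limma adjusted p = 8.5e-07, or 0.067 on a scale that gives each library the same summed FPKM, TPM), and the keratin KRT19 rose by 0.99 (adjusted p = 1.7e-05, or 0.86 on TPM). EPCAM, KRT8 and KRT18 did not pass, with log2 fold changes of -0.28, -0.16 and -0.20. CDX1, the remaining gene of that list of 6, did not pass the minimum. Of 4 genes of other cell types, PTPRC, CD3E and PECAM1 did not pass the minimum, and COL1A1, a fibroblast collagen gene, was 1.92 FPKM at 0 h and 6.87 at 24 h. The part of these genes in the results below was not tested. Transcripts under 300 bases held between 57.0% and 87.6% of a library's summed FPKM. TPM divides by this sum, and its values are given below beside each log2 fold change whose direction it turns.

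The finding that involves sequence concerned 2 small coding exons, so these are shown first. PPP3CB-204 and PPP3CB-203, transcripts of calcineurin A beta, differ by a 30-base coding exon at chr10:75199630-75199659 (GRCh37, minus strand), exon 13 of the 14 exons of PPP3CB-204. Calcineurin A alpha carries an exon of the same length at the matching place, chr4:101950323-101950352 (GRCh37, minus strand), exon 13 of 14 in PPP3CA-203 and absent from PPP3CA-202. The 2 exons are identical at 26 of 30 positions. They are printed here 5′ to 3′ on the transcript strand because the first is the exon that the isoform results turn on and the second is its counterpart. In these 2 lines the capitals are the whole alternative exon.
PPP3CB exon 13: CCACAGTTGAGGCTATTGAGGCTGAAAAAG
PPP3CA exon 13: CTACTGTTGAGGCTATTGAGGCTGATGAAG

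The joins of PPP3CB tell the 2 transcripts apart. In both lines the lower case bases are the end of the preceding exon, and the capitals are the start of the exon joined to it, either the alternative exon or the exon after it.
PPP3CB with the exon: agaccctgcaaagtgCCACAGTTGAGGCTA
PPP3CB without the exon: agaccctgcaaagtgCAATACGAGGATTCT

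PPP5C-201 and PPP5C-202 differ by a 66-base coding exon at chr19:46886668-46886733 (GRCh37, plus strand), exon 5 of the 13 exons of PPP5C-201. The joins are shown in the same way, with capitals for the exon that follows the preceding one.
PPP5C with the exon: aaatgtgcctaccagATTCTGGTACAGGTC
PPP5C without the exon: aaatgtgcctaccagACAGAGAAGATTACA

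The annotated coding lengths are 1575 bases for PPP3CB-204 and 1545 for PPP3CB-203, a difference equal to the 30-base exon. For PPP5C-201 and PPP5C-202 they are 1497 and 1113 bases, so the 66-base exon is not the whole difference between those 2. Exons, coding lengths and sequence are from GENCODE 44 on GRCh37 and its genome.

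At the level of whole genes, the first 2 h in 1% O2 moved none of the 10 past the threshold, whereas at 24 h 3 had fallen and 1 had risen. PPP5C, PPP2CA and PPP6C fell, and PPP1CB rose on the FPKM as deposited, a direction that turns when each library is scaled to the same summed FPKM (TPM). The call of PPP6C was close to the threshold and was lost on TPM. The remaining 6 did not pass at 24 h. The threshold was a limma adjusted p under 0.01, with Benjamini-Hochberg adjustment over 16680 gene names, of which 41.5% passed at 24 h (18.3% higher and 23.2% lower). The 4 of 10 passed here is close to that background. With a fold above 2 as well, 18.3% of gene names passed and 0 of the 10 did.

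PP1 had the highest summed catalytic FPKM, 382 ± 7.79 at 0 h and 398 ± 9.15 at 24 h (SD, n = 3), from 3 genes whose proteins differ mostly at their ends. On TPM the log2 fold changes at 24 h were all below 0, at -1.06 for PPP1CA, -0.37 for PPP1CB and -0.88 for PPP1CC. PPP1CB, PP1 beta, which pairs with the myosin-targeting subunits, was 80.5, 74.3 and 82.0 FPKM at 0 h and 95.7, 113 and 127 FPKM at 24 h. The 3 libraries of 1 h (93.2, 84.2 and 87.0) and of 2 h (103, 83.3 and 109) also lay above all 3 of 0 h. The mean was 78.9 ± 4.08 FPKM (SD, n = 3) at 0 h and 112 ± 15.9 at 24 h, a log2 fold change of 0.50 ± 0.12 (SE, limma adjusted p = 0.0044), and this turned to -0.37 on the TPM scale, on which the median gene name was at -0.67. Relative to that median PPP1CB was higher by 0.55 as deposited and by 0.30 on TPM. Without 0 h replicate 1 or 2, or 24 h replicate 2 or 3, its adjusted p was 0.013, 0.022, 0.015 or 0.017, none of them under the threshold, and it was 0.034 on TPM over transcripts of at least 300 bases.

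PPP1CA, PP1 alpha, was 134 ± 2.21 FPKM (SD, n = 3) at 0 h and 118 ± 16.6 at 24 h, and its log2 fold change of -0.19 ± 0.11 (SE) had a limma adjusted p of 0.15. PPP1CC, PP1 gamma, stood first among the 10 at each time point, with 169 ± 5.84 FPKM at 0 h, 198 ± 14.5 at 2 h and 168 ± 12.9 at 24 h (SD, n = 3). Its 3 libraries of 2 h lay above those of 0 h, but the limma adjusted p at 2 h was 0.31, and at 24 h the log2 fold change was -0.01 ± 0.10 with an adjusted p of 0.92.

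Of the PP2A genes, PPP2CA fell and PPP2CB did not pass. PPP2CA, PP2A alpha, was 149, 171 and 147 FPKM at 0 h and 102, 101 and 77.9 FPKM at 24 h. The groups did not overlap, and the highest 24 h library was far under the lowest of 0 h. The mean went from 155 ± 13.3 to 93.6 ± 13.7 FPKM (SD, n = 3), a log2 fold change of -0.74 ± 0.12 (SE, limma adjusted p = 0.00029). At 1 h and 2 h PPP2CA was 165 ± 10.4 and 154 ± 16.2 FPKM. PPP2CB, the beta gene that encodes a nearly identical enzyme, was 62.2 ± 6.36 FPKM at 0 h, 74.4 ± 12.1 at 2 h and 55.0 ± 5.45 at 24 h (SD, n = 3), and its log2 fold change of -0.18 ± 0.15 at 24 h had an adjusted p of 0.33. Summed over both genes and over transcripts of any length and type, PP2A catalytic FPKM was 218 ± 8.56 at 0 h and 149 ± 9.19 at 24 h. SKP1, CDKL3 and another gene lie in the same assembled locus as PPP2CA, and SPDYA in that of PPP1CB. Whether reads were divided between neighbours was not tested, nor were reads shared by close relatives such as PPP2CA and PPP2CB.

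PPP5C, which encodes PP5, had the largest fall of the 10 at 24 h. It was 66.9, 66.3 and 62.8 FPKM at 0 h, between 61.8 and 66.5 at 1 h, between 55.6 and 65.9 at 2 h, and 37.8, 33.8 and 33.5 at 24 h. All 3 libraries of 24 h lay below the other 9. The log2 fold change at 24 h was -0.89 ± 0.09 (SE, limma adjusted p = 7.1e-06), from 65.3 ± 2.205 to 35.0 ± 2.43 FPKM (SD, n = 3). PPP5C and PPP2CA passed at 24 h, in the same direction, in each of the 18 other settings tried.

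Among the PP2A relatives, PPP6C, the catalytic subunit of PP6, was 46.4, 43.5 and 45.6 FPKM at 0 h and 35.3, 36.7 and 32.3 FPKM at 24 h. Its groups did not overlap, and the log2 fold change of -0.37 ± 0.10 (SE) had a limma adjusted p of 0.0079, close to the threshold. Leaving out any 1 of the 6 libraries of 0 h and 24 h raised that p to between 0.011 and 0.030, and median-of-ratios scaling raised it to 0.019. The call of PPP6C was also lost on TPM and in a fit of those 6 libraries alone. PPP4C, the catalytic subunit of PP4, was 104 ± 3.87 FPKM at 0 h and 101 ± 21.1 at 24 h (SD, n = 3), with 24 h libraries of 123, 97.4 and 81.4 FPKM on either side of the 0 h range. Its log2 fold change was -0.07 ± 0.12 (adjusted p = 0.67).

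Of the calcineurin genes, neither PPP3CA nor PPP3CB passed. PPP3CA, calcineurin A alpha, was 82.6, 70.0 and 87.6 FPKM at 0 h and 104, 97.2 and 117 FPKM at 24 h. The groups did not overlap, and the log2 fold change was 0.41 ± 0.15 (SE, limma adjusted p = 0.037), against -0.46 on the TPM scale. PPP3CB, calcineurin A beta and the least abundant of the 10 genes, was 18.9 ± 1.11 FPKM at 0 h and 20.8 ± 3.50 at 24 h (SD, n = 3), with overlapping groups. Its log2 fold change was 0.12 ± 0.14 (SE, limma adjusted p = 0.50), against -0.70 on the TPM scale.

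**Figure D1:**
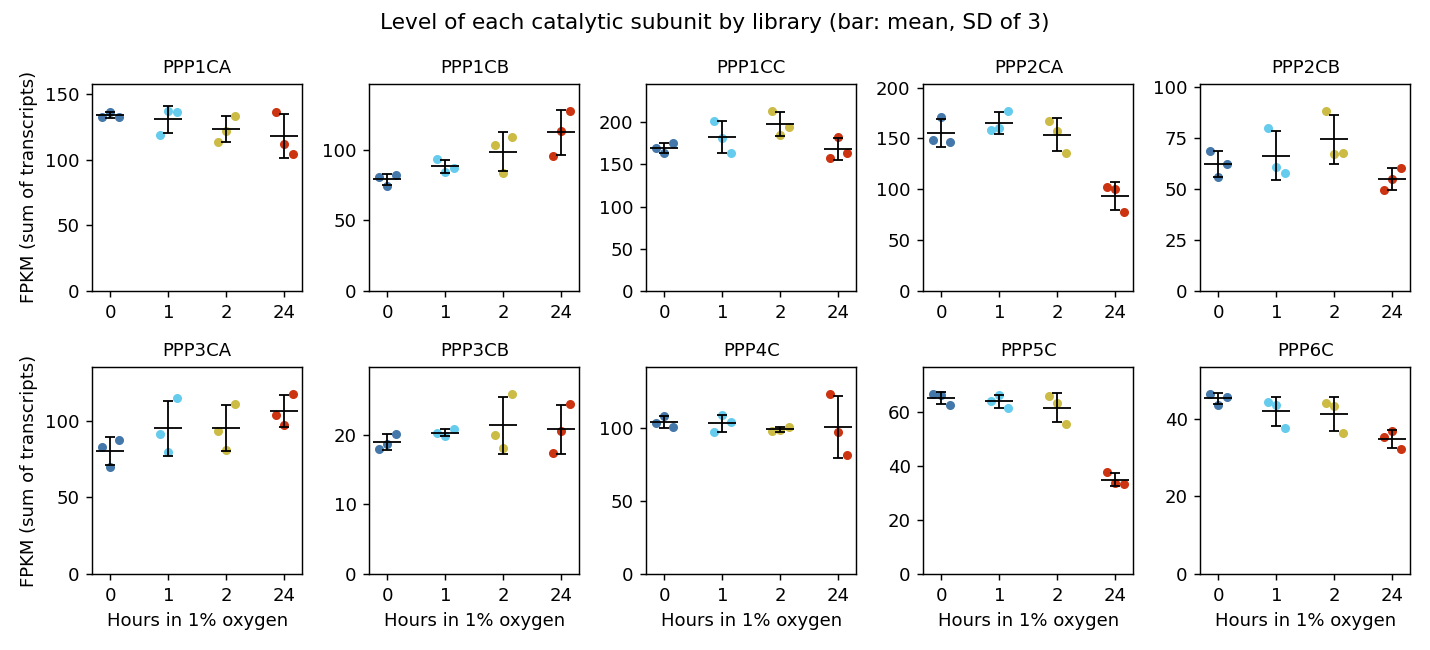
FPKM of each catalytic subunit (y axis, summed over transcripts, as deposited) against hours in 1% oxygen (x axis, 4 time points equally spaced). Points are libraries, and bars give the mean and SD of 3. The 24 h libraries of PPP2CA and PPP5C lie below all others of their gene and those of PPP6C below all 3 of 0 h, those of PPP1CB lie above all 3 of 0 h as deposited (on TPM its log2 fold change is -0.37), and PPP1CA, PPP1CC, PPP2CB, PPP3CB and PPP4C overlap between 0 h and 24 h.

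At 24 h the ranges of 5 of the 10 did not meet those of 0 h, against 60.4% of gene names (27.6% higher and 32.8% lower). These were PPP1CB and PPP3CA above and PPP2CA, PPP5C and PPP6C below. At 1 h it was 1 of 10, PPP1CB, against 13.7% of gene names (6.36% higher and 7.33% lower), and at 2 h 2 of 10, PPP1CB and PPP1CC, against 25.3% (12.2% higher and 13.1% lower). The limma adjusted p passed 0.006% of gene names at 1 h and 0.024% at 2 h, and 0 of the 10 at either. At an unadjusted p under 0.05, 0 of the 10 passed at 1 h against 4.61% of gene names, 2 at 2 h (PPP1CB and PPP1CC) against 15.3%, and 5 at 24 h against 60%.

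**Figure D2:**
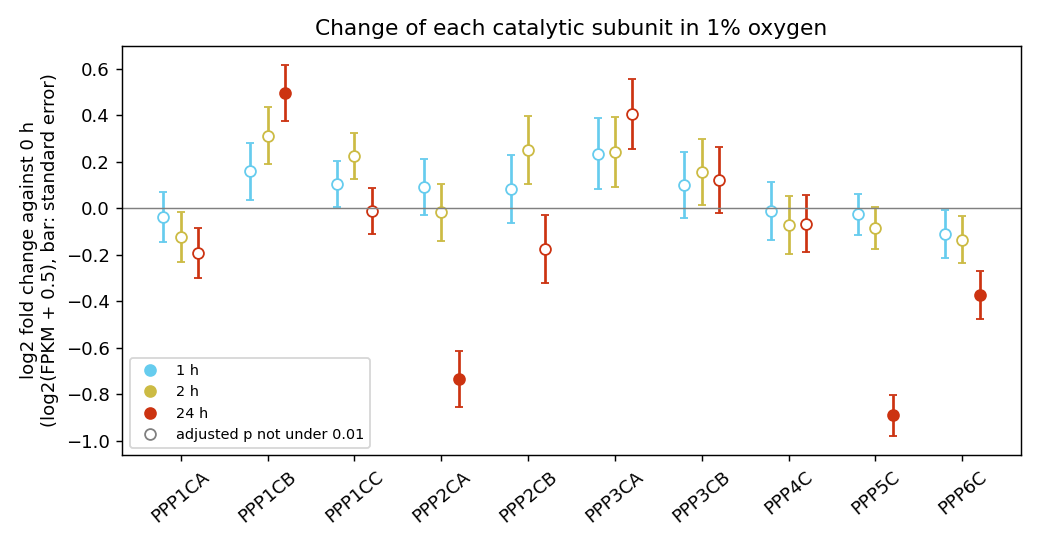
log2 fold change against 0 h (y axis, log2(FPKM + 0.5), FPKM as deposited) for each gene at 1, 2 and 24 h. Bars are standard errors from the fit, and filled points have an adjusted p under 0.01. Only 24 h points are filled, namely PPP2CA, PPP5C and PPP6C below 0 and PPP1CB above it, where PPP1CB would lie at -0.37 on TPM.

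The order of the levels changed between 0 h and 24 h. At 0 h the means ran PPP1CC, PPP2CA, PPP1CA, PPP4C, PPP3CA, PPP1CB, PPP5C, PPP2CB, PPP6C and PPP3CB, from 169 to 18.9 FPKM. The ranges of PPP1CC and PPP2CA met, as did those of PPP3CA and PPP1CB and those of PPP5C and PPP2CB, and every other pair of neighbours was separate. At 24 h PPP1CC remained first. PPP1CA, PPP1CB, PPP3CA, PPP4C and PPP2CA then followed between 118 and 93.6 FPKM, each range meeting that of the next, so PPP2CA went from the second place to the sixth. PPP2CB came after them, then PPP5C (35.0) and PPP6C (34.8), whose ranges met, and PPP3CB. The 10 genes summed to 913 ± 5.10 FPKM at 0 h and 844 ± 19.2 at 24 h (SD, n = 3).

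Shares within an enzyme do not depend on how libraries are scaled to each other. PPP1CB made up 21.1%, 19.9% and 21.1% of PP1 catalytic FPKM at 0 h and 24.5%, 27.8% and 32.3% at 24 h. The mean share went from 20.7% ± 0.684 through 21.99% at 1 h and 23.4% at 2 h to 28.2% ± 3.88 (SD, n = 3). An exact permutation test of the F statistic over the 15400 divisions of the 12 libraries into 4 time points gave p = 0.0081, and 0.041 after Benjamini-Hochberg adjustment over the 5 shares tested. Without 0 h replicate 1, 2 or 3, or 24 h replicate 3, the adjusted p was 0.15, 0.18, 0.15 or 0.10. The shares of PPP1CA (35.1% to 29.7%) and PPP1CC (44.3% to 42.1%) in PP1 each had an adjusted permutation p of 0.24.

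PPP2CA made up 71.3% ± 3.61 of PP2A catalytic FPKM at 0 h and 62.8% ± 5.76 at 24 h (SD, n = 3). No library of 24 h reached the lowest of 0 h, but the adjusted permutation p was 0.24, and the difference of -8.57 percentage points was -5.33 without 24 h replicate 3. The PPP2CA share counts transcripts of any length and type. Transcripts under 1000 bases held 71.8% of PPP2CA FPKM at 0 h and 72.5% at 24 h, against 2.88% and 1.42% for PPP2CB. Those annotated as noncoding held 42.5% of PPP2CA at 0 h, against 0.0729% of PPP2CB. Which gene gave more FPKM in longer transcripts cannot be read from that share. PPP3CA made up 80.8% ± 1.65 of calcineurin A FPKM from PPP3CA and PPP3CB at 0 h and 83.7% ± 1.73 at 24 h, with an adjusted permutation p of 0.29, and the difference of 2.86 points was 1.86 without 24 h replicate 1. In pairs of 3 libraries against 3, an exact permutation test cannot give a p below 0.1.

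**Figure D3:**
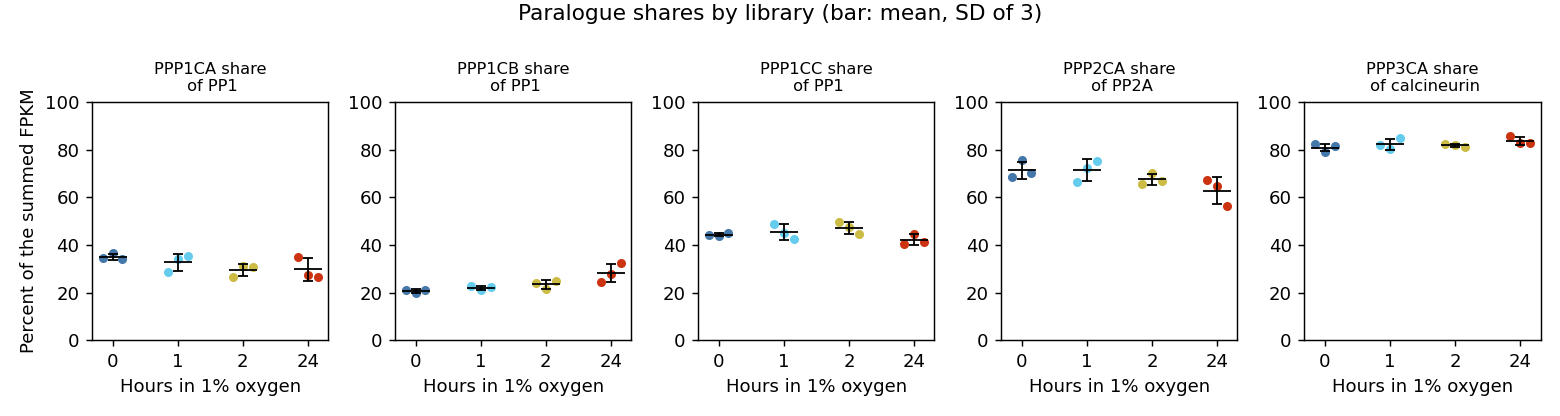
Percent of the enzyme's summed catalytic FPKM (y axis, transcripts of any length and type) contributed by each gene, against hours in 1% oxygen (x axis, equally spaced). Points are libraries, and bars give the mean and SD of 3. PPP1CB lies at 19.9 to 21.1% at 0 h and at 24.5 to 32.3% at 24 h.

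Isoform usage, the part of a gene's FPKM in each transcript, changed at 24 h in 4 of the 10 genes, PPP3CB, PPP5C, PPP4C and PPP1CB. The paper had already listed PPP5C and PPP3CB, from these libraries, as phosphatases with a coding-sequence change called by Cuffdiff. The test used here compared each transcript with the rest of its gene, log2((FPKM + 0.5)/(rest + 0.5)), in limma, combined per gene by Simes' method and adjusted over 10680 gene names. Of these, 27.6% were called at an adjusted p under 0.05, and 11% of 57084 transcripts, so 4 of 10 is not far from the background here either. The other limma test, diffSplice, called 5 of 10 at 24 h, PPP1CB, PPP1CC, PPP3CA, PPP3CB and PPP5C, against 29.1% of gene names. At an unadjusted p under 0.05, 4 of the 10 passed at 24 h, against 42.5% of gene names. At 1 h 0 of the 10 were called (0.0187% of gene names and 0.0035% of transcripts), with 1 at an unadjusted p under 0.05 (5.14% of gene names) and 0 by diffSplice (0.843%). At 2 h 0 of the 10 were called (0.00936% of gene names and 0.00175% of transcripts), with 2 at an unadjusted p under 0.05 (8.57% of gene names) and 1 by diffSplice (2.82%).

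In PPP3CB the transcript with the most FPKM changed. PPP3CB-204, with the 30-base exon, was 7.18, 8.14 and 7.08 FPKM at 0 h and 1.81, 1.59 and 2.58 FPKM at 24 h. PPP3CB-203, without it, was 1.80, 2.32 and 2.88 FPKM at 0 h and 7.09, 10.0 and 9.16 FPKM at 24 h. Each separated 0 h from 24 h without overlap, in opposite directions, while the sum over the gene did not pass the test. Against the rest of the gene, PPP3CB-204 fell (log2 ratio -2.48 ± 0.29, SE, limma adjusted p = 0.00094) and PPP3CB-203 rose (2.13 ± 0.27, adjusted p = 0.0015). The gene's adjusted p was 0.0014, and it stayed under 0.05 in each of the 15 other settings tried (0.0005 to 0.023).

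PPP3CB-204 held the most FPKM of the gene in all 3 libraries of 0 h and PPP3CB-203 in all 3 of 24 h. At 1 h and at 2 h PPP3CB-204 was highest in 2 libraries and PPP3CB-201 in 1. PPP3CB-201, another coding transcript, with 12 exons, was 30.1% of the gene at 0 h and 30.6% at 24 h. These 3 transcripts were placed in 1 start-site group. As a description with no test, since the exon was chosen from these values, transcripts with the exon held 77.3% ± 3.68 of the FPKM of fully matching transcripts that contain or skip it at 0 h (SD, n = 3). After 1 h the share was 78.4%, after 2 h 67.6% ± 7.02 and after 24 h 21.8% ± 8.04. On the same measure, the matching exon of PPP3CA was in 21.9% ± 2.07 of FPKM to begin with and in 20.8%, 24.8% and 22.8% ± 0.526 after 1, 2 and 24 h. PPP3CB-201 is outside the share given for PPP3CB, as are class j transcripts, which were 7.38% of PPP3CB at 0 h and 12.2% at 24 h and whose exons are not known from the class code. With all class j transcripts counted as carrying the exon, a choice made after the data were seen, the PPP3CB share was 80.1% ± 2.48 at 0 h and 36.0% ± 9.52 at 24 h, and with all counted as lacking it 68.4% ± 6.98 and 17.7% ± 6.28. The 3 libraries of 24 h lay below all 3 of 0 h either way. PPP3CA itself was not called for usage (adjusted p = 0.28), although diffSplice called it (0.0014).

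In PPP5C both transcripts encode protein, and the fall of the gene was in the longer one. PPP5C-201, with the 66-base exon, was 59.1, 57.0 and 55.0 FPKM at 0 h and 29.8, 24.0 and 22.05 FPKM at 24 h. PPP5C-202, without it, was 2.22, 2.68 and 2.97 FPKM at 0 h and 5.80, 6.76 and 9.39 FPKM at 24 h. The 24 h libraries of the 2 transcripts lay on opposite sides of their 0 h libraries. As a part of the gene, PPP5C-201 went from 87.3% ± 1.18 to 71.9% ± 6.53 and PPP5C-202 from 4.03% ± 0.706 to 21.1% ± 6.45 (SD, n = 3). Against the rest of the gene PPP5C-202 rose (2.51 ± 0.50, SE, limma adjusted p = 0.011) and PPP5C-201 fell (-1.47 ± 0.32, adjusted p = 0.016). Unlike those of PPP3CB, the 2 transcripts were placed in different start-site groups. Of the FPKM of fully matching transcripts that contain or skip it, the exon itself was in 95.6% ± 0.758 to begin with. It was in 94.8%, 93.2% ± 4.34 and 77.4% ± 6.80 after 1, 2 and 24 h, given without a test for the same reason. PPP5C-201 remained the transcript with the most FPKM in all 12 libraries. The gene's adjusted p for usage was 0.019, and without 0 h replicate 1, 24 h replicate 2 or 24 h replicate 3 it was 0.071, 0.058 or 0.063.

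**Figure D4:**
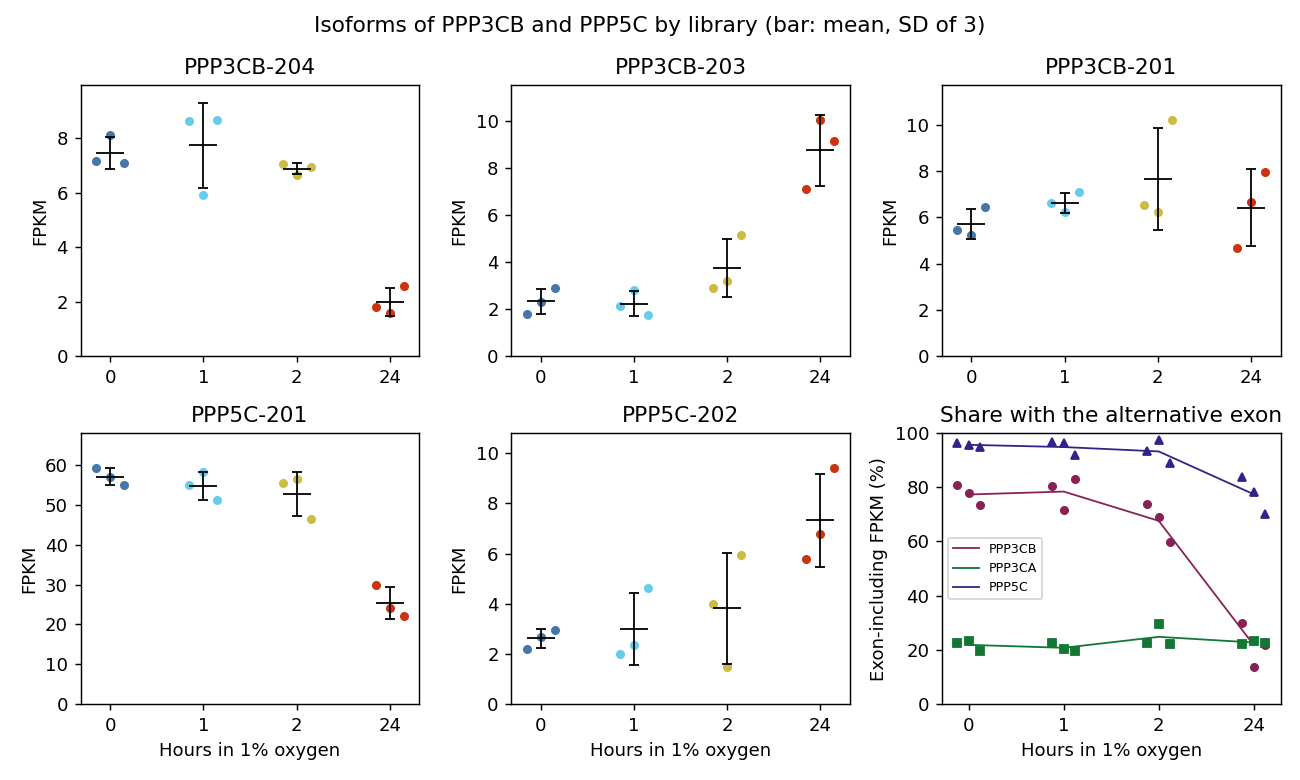
FPKM (y axis) of 3 transcripts of PPP3CB and 2 of PPP5C, and the percent of FPKM in transcripts with the alternative exon (last panel), against hours in 1% oxygen (x axis, equally spaced). Points are libraries, bars give the mean and SD of 3, and lines join means. PPP3CB-204 and PPP3CB-203 exchange places at 24 h, and the share with the exon of PPP3CB, over fully matching transcripts, goes from 77.3% to 21.8%.

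The other 2 calls were near the threshold. PPP4C-207, annotated as a target of nonsense-mediated decay (NMD, the removal of transcripts with early stop codons), was 7.07 ± 0.269 FPKM at 0 h and 2.46 ± 0.489 at 24 h (SD, n = 3), and fell against the rest of PPP4C (-1.36 ± 0.31, SE, limma adjusted p = 0.018). For PPP4C as a gene the adjusted p was 0.045, and 0.15 by diffSplice. In PPP1CB, the NMD transcript PPP1CB-205 rose (1.02 ± 0.28, adjusted p = 0.038) from 0.247 ± 0.204 to 1.58 ± 0.313 FPKM. The retained-intron transcript PPP1CB-208 rose too (1.65 ± 0.43, adjusted p = 0.034), a value that depends on the pseudocount, since it was listed at 0 in all 3 libraries of 0 h and then at 2.44, 1.21 and 1.55 FPKM at 24 h. For PPP1CB as a gene the adjusted p was 0.045. Without any 1 of the 6 libraries of 0 h and 24 h it was 0.063 to 0.14, and for PPP4C it was 0.10 to 0.14 without any of them but 24 h replicate 3, without which it was 0.023.

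In 7 of the 10 genes the same transcript had the most FPKM in all 12 libraries, and in PPP2CA, PPP3CA and PPP3CB it varied. PPP1CA-203 was 59.7% of PPP1CA at 0 h and 57.1% at 24 h, with PPP1CA-201 at 28.5% and 28.7%. PPP1CC-201 was 84.7% and 81.5% of PPP1CC, with PPP1CC-202 at 11.8% and 11.9%. PPP4C-201 was 63.9% and 62.1% of its gene, and PPP1CB-201 was 74.3% and 68.9%. PPP1CB-206 was 14.3% and 16.8%, and PPP1CB-202 was 9.92% and 10.3%. A class j transcript nearest to PPP4C-209 held 17.8% and 19.5%. For PPP2CB, PPP2CB-201 held 80.1% and 85.4%, and a class j transcript nearest to it held 16.6% ± 9.17 and 11.97% ± 12.1.

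Short transcripts held much of 3 genes. PPP2CA-201, of 564 bases and with no defined coding sequence, was 35.8% of PPP2CA at 0 h and 39.5% at 24 h, PPP2CA-205, of 585 bases, was 29.2% and 27.9%, and the long PPP2CA-203, of 4649 bases, was 28.2% and 27.5%. In PPP6C, a transcript of 960 bases with no entry in GENCODE 44 held 50.7% and 52.9%, PPP6C-201 held 28.3% and 26.2%, and PPP6C-204, of 569 bases, held 18.6% and 16.6%. A PPP3CA-202 entry of 3604 bases held 32.7% and 32.9% of PPP3CA, another of 5376 bases under the same name held 4.75% and 6.16%, and the 579-base PPP3CA-209 held 31.4% and 25.6%. PPP3CA-201 was at 13.5% and 14.1%, and the fully matching PPP3CA-203 at 7.59% and 13.3%. Summed over transcripts of at least 1000 bases alone, a setting chosen after the data were seen, PPP2CA and PPP5C passed again. PPP1CB (adjusted p = 0.029) and PPP6C (0.014) did not, and PPP3CA did (0.0046).

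Transcripts annotated as noncoding, which here covers retained introns, NMD targets and transcripts with no defined coding sequence, were tested in the 9 members that have any. PPP1CB held 0.579%, 0.0847% and 0.258% in them at 0 h and 3.88%, 2.74% and 2.44% at 24 h. PPP1CA held 3.56%, 3.83% and 1.91% at 0 h and 4.80%, 3.86% and 4.75% at 24 h. In both, all libraries of 24 h were above all of 0 h, but by little in PPP1CA. An exact permutation test of F over the 4 time points gave p = 0.011 for PPP1CB and p = 0.0080 for PPP1CA, each 0.052 after adjustment over the 9, so neither passed. PPP1CA was at 3.10% at 0 h, 1.70% at 1 h and 2.46% at 2 h, so its F does not measure the 24 h rise alone. For 24 h against 0 h alone the permutation p was 0.1 in both genes, the lowest that 3 libraries against 3 can give. PPP1CC went from 1.21% ± 1.10 to 4.25% ± 2.46 (SD, n = 3, adjusted permutation p = 0.16), a difference of 3.05 percentage points that was 1.64 without 24 h replicate 3. PPP2CA was at 42.5% and 44.6% and PPP4C at 30.2% and 31.6%, in PPP4C mostly NMD targets (26.6% at both times), and their adjusted p and those of the other 4 genes were 0.33 or more.

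Partners of these enzymes, 73 genes in 7 lists, were described in the same fit. All are regulatory or targeting subunits, inhibitors or assembly factors but PPP3CC, a catalytic gene of calcineurin outside the 10 that stands in the calcineurin list. Of the 69 tested, 16 passed higher and 12 lower at 24 h as deposited, or 40.6%, against 41.5% of all gene names (41.2% of 68 without PPP3CC). On TPM, 2 of the 69 passed higher, PPP1R3B and PPP2R5B, against 2.01% of all gene names, and 9 passed lower, against 26%. With a fold above 2, 6 passed higher and 2 lower, against 8.76% and 9.51% of all gene names. Directions below are as deposited.

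PP1 has inhibitors and targeting subunits. Among 11 inhibitors and general regulators, 0 rose and 3 fell, against 18.3% of all gene names higher and 23.2% lower. Their median log2 fold change was -0.03, against -0.05 for all gene names. PPP1R8, a nuclear inhibitor, fell from 49.0 ± 1.98 to 25.6 ± 2.34 FPKM (SD, n = 3), and its log2 fold change was -0.93 (limma adjusted p = 8.6e-06). PPP1R7, a conserved nuclear partner, fell with a value of -0.55, and the third was PPP1R14B. Of 4 glycogen-targeting subunits tested (of 6 listed), 1 rose and 0 fell, with a median of 0.73 (2 rose without 24 h replicate 1). The 1 that rose with all libraries was PPP1R3B, which brings PP1 to glycogen, at 1.45, 1.63 and 2.12 FPKM at 0 h and 12.6, 15.2 and 18.8 FPKM at 24 h, with a log2 fold change of 2.84 ± 0.19 (SE, limma adjusted p = 5.6e-07). All 3 libraries of 24 h were far above the rest, and on TPM the log2 fold change was 1.82.

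Of 11 cytoskeletal and other targeting subunits, 6 rose and 0 fell as deposited (median 0.46), against 18.3% of all gene names higher and 23.2% lower, and 0 rose on TPM, against 2.01%. PPP1R13L, an inhibitor of p53 that binds PP1, rose from 13.1 ± 0.670 to 47.8 ± 1.83 FPKM (SD, n = 3, log2 fold change 1.83, limma adjusted p = 6.2e-08), but on TPM its adjusted p was 0.057. PPP1R12B, a myosin-targeting subunit and thus a partner of PPP1CB, rose from 1.57 ± 0.465 to 3.56 ± 0.589 FPKM (0.99, adjusted p = 0.00082), with an adjusted p of 0.52 on TPM.

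PP2A works as a trimer of catalytic, scaffold and B subunits. Of 16 scaffold and B subunits tested (of 17), 5 rose and 1 fell, against 18.3% of all gene names higher and 23.2% lower. The median was 0.28. Without 0 h replicate 2, or over transcripts past the minimum alone, 3 passed higher, and on TPM 1 did, against 2.01% of all gene names. The one that fell was PPP2R1B, the beta scaffold, at 16.4, 20.4 and 20.5 FPKM at 0 h and 8.13, 6.63 and 8.23 FPKM at 24 h (log2 fold change -1.26, limma adjusted p = 4.0e-06). PPP2R5B, a B56 subunit, rose from 2.99 ± 0.0615 to 15.7 ± 1.85 FPKM (SD, n = 3), and its log2 fold change of 2.203 ± 0.14 (SE, adjusted p = 3.0e-07) was 1.28 on TPM. PPP2R3B, at 1.16 FPKM at 0 h and 2.82 at 24 h, rose as well (1.02, adjusted p = 0.0021, or 0.012 without 0 h replicate 2 and 0.34 on TPM). It lies in the region that the X and Y chromosomes share, where reads of the copies cannot be told apart.

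Of 10 inhibitors, methylation and assembly factors of PP2A, 1 rose and 4 fell (median -0.29), against 18.3% of all gene names higher and 23.2% lower. KIAA1524, which encodes the inhibitor CIP2A, fell from 32.8 ± 1.05 to 15.4 ± 1.90 FPKM (SD, n = 3, log2 fold change -1.07, limma adjusted p = 2.5e-05). The inhibitors SET, ANP32A and ENSA were the other 3 that fell. IGBP1, which binds the catalytic subunits of PP2A, PP4 and PP6, rose (1.11, adjusted p = 2.3e-05), but nearly all of its FPKM was in 1 class j transcript (21.0 ± 2.90 FPKM at 0 h and 51.8 ± 5.16 at 24 h). Its fully matching transcripts were 3.63 ± 1.08 and 1.68 ± 0.932 FPKM, and on them alone the log2 fold change was -0.99 (adjusted p = 0.015).

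Of 6 genes tested in the calcineurin list (of 7), 2 rose and 1 fell, against 18.3% of all gene names higher and 23.2% lower. The median was 0.28, or 0.31 over the 5 without PPP3CC (1 rose without 0 h replicate 1, and 2 fell without 24 h replicate 1). RCAN3, a calcineurin regulator, rose from 3.71 ± 0.700 to 8.20 ± 0.952 FPKM (SD, n = 3, log2 fold change 1.05, limma adjusted p = 0.0022, or 0.012 without 0 h replicate 1 and 0.60 on TPM). CABIN1, a calcineurin inhibitor, rose by 0.79 as deposited and had -0.06 on TPM. The one that fell was PPP3R1, the regulatory B chain. PPP3CC, calcineurin A gamma, was 8.22 ± 0.609 FPKM at 0 h and 9.95 ± 2.21 at 24 h (SD, n = 3). Its log2 fold change was 0.24 ± 0.17 (SE, limma adjusted p = 0.24), against -0.53 on TPM. Of 11 regulatory subunits of PP4 and PP6, 1 rose and 3 fell (median -0.18), against 18.3% of all gene names higher and 23.2% lower. Without 0 h replicate 2, 0 h replicate 3 or 24 h replicate 2, as on TPM, 1 passed lower. PPP4R1 fell from 30.02 ± 1.79 to 17.3 ± 1.86 FPKM (-0.78, adjusted p = 9.7e-05). PPP6R2 rose (0.50, adjusted p = 0.0082), a call that was lost without any 1 of the 6 libraries but 0 h replicate 3 (0.010 to 0.042) and that turned to -0.34 on TPM.

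**Figure D5:**
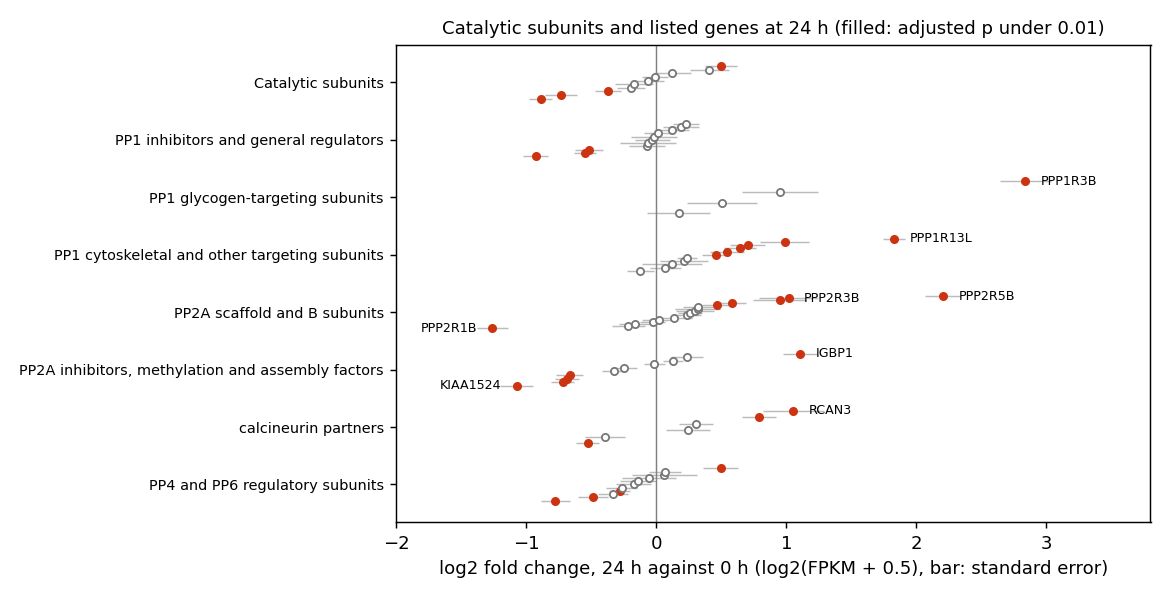
log2 fold change at 24 h against 0 h (x axis, log2(FPKM + 0.5), FPKM as deposited) for the 10 catalytic subunits and the 7 lists, PPP3CC being in the calcineurin list, 1 point a gene with its standard error. Filled points have an adjusted p under 0.01, and names mark those described whose fold was above 2. The 10 lie between -0.89 and 0.50, and PPP1R3B at 2.84 lies farthest out, while on TPM 2 of the listed genes pass higher, PPP1R3B and PPP2R5B.

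Over the 12 libraries, the gene names whose log2(FPKM + 0.5) was most like that of PPP1CB were AK3 (Pearson's r = 0.973), LMAN1 (0.969) and CCSAP (0.969). For PPP5C they were TPD52L2 (0.998), HSD17B10 (0.997) and TOMM40 (0.997). Among the 10 themselves PPP5C was most like PPP2CA (r = 0.950) and least like PPP1CB (-0.753). These are descriptions over libraries that share 1 time course, with no test.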

How the data were processed

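The members, the lists and the tests were chosen with earlier results of these data known. The authors aligned 100-base read pairs to hg19 with MapSplice, assembled transcripts per sample with Cufflinks, merged them and classed them against Ensembl 74. The deposited values are FPKM per merged transcript and library, with no scaling between libraries named, and the deposited attribute table gives class code, gene name, locus and length. The files used here hold no read counts or depths, so no depth or counting interval was computed from them.

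FPKM was summed per gene name over class = and j transcripts. Gene names with a sum above 0.5 in at least 3 libraries were fitted in limma 3.58.1 (R 4.3.3) on log2(FPKM + 0.5), with a mean-variance trend and all 12 libraries in 1 fit. Fold changes are on that scale, which understates those of low genes. The authors' edgeR analysis needs counts. Tests are two-sided. Transcript types, exons and sequences came from GENCODE 44 lifted to GRCh37 by transcript identifier, for 64 of the 66 kept transcripts. Some deposited models are much shorter than the GENCODE entry of that identifier, such as PPP1CB-205 (569 against 2047 bases), PPP2CA-205 (585 against 1553) and PPP1CA-207 (552 against 2430). The types and noncoding shares of such transcripts rest on the GENCODE entry. On simulated data for 24 h against 0 h, the gene-level fit recovered 65.5% of 200 genes changed by 1 on the log2 scale among 16680, with 2 false calls, and the usage test recovered 29.5% of 200 changed by 1.5 among 10680, with 1 false call (diffSplice recovered 51.5%, with 148 false calls). The simulated noise was independent between libraries, and the changed genes were taken above a minimum level. In the data far more gene names passed (41.5% at gene level and 27.6% for usage), so these rates need not hold there.

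All 10 members are described. Their transcripts are named at a mean share of at least 10% at any time or an adjusted p under 0.05 for usage. In each regulatory list up to 4 genes with the largest changes and a fold above 2 are named, or up to 2 on the adjusted p alone where fewer than 2 have that fold. Other genes named for a list that passed, and the neighbours at a locus, complete a count, and PPP3CC is named as a catalytic gene in a list. The 3 gene names with the highest correlation are given for the member that rose most and the one that fell most.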

Additional observations from a re-analysis of the deposited data

Results flagged for a closer look

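For 2 genes, every library of an early time point and every library of 24 h lay on opposite sides of the 0 h mean. PPP2CA was above it in all 3 libraries of 1 h and below it in all 3 of 24 h, and the mean of 24 h minus that of 1 h was -71.7 FPKM. PPP2CB was above it in all 3 libraries of 2 h and below it in all 3 of 24 h, and the mean of 24 h minus that of 2 h was -19.4 FPKM. The difference between the time points was not tested in either case. No group had the 4 libraries that a search for single outlying libraries needs.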

How the results depend on the processing

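The values are FPKM without counts, so the part that depth plays in their spread was not tested. PPP5C and PPP2CA at gene level and PPP3CB for usage kept their direction and their side of the threshold in every setting tried. Of all values recomputed under other settings, 768 of 903 kept direction and side of the threshold or, for counts, stayed within a factor of 1.5 and, for exon shares, moved by less than 1 SD, and the cause of the rest was not tested.

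TPM shifted the median log2 fold change of all gene names to -0.53, -0.88 and -0.67 at 1, 2 and 24 h (TPM over transcripts of at least 300 bases, -0.14 at 24 h), and passed 38 gene names at 1 h, 467 at 2 h, and 4669 at 24 h, 7.17% of them higher against 44.1% of 6927 as deposited. It passed 2 members at 24 h and 2 listed genes higher, and turned PPP1CB (-0.37), PPP3CA (-0.46), PPP3CB (-0.70), CABIN1 (-0.058) and PPP6R2 (-0.34). Median-of-ratios scaling turned PPP1CC (0.051).

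At 1 h, no filter, the replicate block and transcripts of at least 1000 bases (chosen after the data were seen) each passed 0 gene names against 1. At 2 h, against 4, no filter passed 0, a pseudocount of 0.1 passed 9, a minimum of 1 passed 8, transcripts past the minimum alone passed 8 and those of at least 1000 bases 26. With the 6 libraries of the contrast alone, 2 members passed at gene level, 2 were called for usage and 1096 gene names were called for usage, against 6893 with no minimum and 2948 in the main test. Class code = alone called 2 members for usage, as did transcripts of at least 1000 bases, among which PPP2CA could not be tested. Class code = alone also turned IGBP1 (-0.99) and the noncoding share of PPP4C (-0.153 percentage points), and its PPP2CA share of PP2A (-8.91 points) passed (adjusted permutation p = 0.030). With transcripts of at least 1000 bases the PPP1CB share of PP1 (5.81 points) no longer passed (0.18) and the PPP3CA share of calcineurin (5.06 points) did (0.0062). Over transcripts past the minimum alone, the noncoding shares of PPP1CA (1.49 points), PPP1CB (2.72) and PPP5C (-2.84) passed (each 0.030). The permutation p values for shares are of F over all 4 time points, while the points beside them are 24 h minus 0 h.

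Leaving out 1 library of 0 h or 24 h, 0 to 1 gene names passed at 1 h and 0 to 6 at 2 h (0 at both without any 1 library of 0 h, and 1 at 2 h without 24 h replicate 2), 2 to 3 members passed at 24 h, 1 to 2 members and 1641 to 2388 gene names were called for usage, and the log2 fold changes ranged from -0.074 to 0.029 for PPP1CC and from -0.22 to 0.076 for PPP4C. The share of PP1 differed by -8.06 to -3.83 points for PPP1CA, 5.48 to 9.34 for PPP1CB and -3.39 to -1.28 for PPP1CC, that of PPP2CA in PP2A by -10.9 to -5.33 and that of PPP3CA by 1.86 to 3.52. Noncoding shares differed by 0.771 to 1.73 (PPP1CA), 2.29 to 3.00 (PPP1CB), 1.64 to 3.88 (PPP1CC), -1.53 to 4.34 (PPP2CA), 0.026 to 0.173 (PPP2CB), -0.377 to -0.052 (PPP3CA), -0.347 to -0.154 (PPP3CB), -0.566 to 3.47 (PPP4C) and -2.76 to -1.13 points (PPP5C). The lowest adjusted permutation p of F for these shares was 0.0053 for PPP1CA, 0.039 for PPP1CB and 0.039 for PPP4C. With all libraries it was 0.052, 0.052 and 0.33.

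Replicate numbers are shared between time points, but the labels give no common origin. Same-numbered libraries deviated together with r over 0.1 in 10 of 18 pairs (-0.083 to 0.43), and 10 of 12 libraries correlated best with their own number. With the replicate block 7648 gene names passed at 24 h against 6927, and 5 members, PPP3CA (adjusted p = 0.00090) being the addition. For usage with the block, PPP1CB (0.071) and PPP4C (0.088) were not called and PPP1CC (0.041) was.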
